A study of Homo sapiens with 36 samples.

Results

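RNA clusters recovered with FLAG-tagged SCAF8 were compared with those of the input of the same extracts, to ask where along genes and mRNAs, and in which genes, the pull-down differed from the RNA it was made from. The members were all clusters of the 3 SCAF8 IP lists and the 3 SCAF8 input lists, as the sample labels assign them, which is 113493 of the 278185 clusters in 18 lists of PAR-CLIP (photoactivatable ribonucleoside-enhanced crosslinking and immunoprecipitation). The lists came from 36 sequenced samples, 12 of them of the SCAF8 line, because a soluble and a chromatin library were combined for each list. HEK293 Flp-In T-REx cells, a human embryonic kidney line with a single integration site for inducible constructs, carried FLAG-SCAF8 in a background with normal SCAF4 and SCAF8 genes. All SCAF8 samples, IP and input alike, received 100 ng/mL doxycycline overnight per the labels to induce the tagged protein, 100 µM 4-thiouridine (4SU) overnight and 500 µM 4SU for 2 h, and 365 nm light at 2000 J/m2. The input was 1% of each extract, set aside before the anti-FLAG IP. The FLAG-SCAF4 line, treated alike, and the parental line, in which the FLAG antibody has no tagged target and for which the labels give no doxycycline, had 3 IP and 3 input lists each. As a model the line has a limit, since tagged SCAF8 was made from an inducible construct beside the cell's own SCAF8.

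SCAF8 is a nuclear RNA-binding protein with a domain that recognizes the phosphorylated C-terminal repeats of RNA polymerase II (RNAPII), a domain it shares with transcription termination factors such as PCF11. In PAR-CLIP, 4SU in newly made RNA is crosslinked to bound protein, and crosslinked sites are read as clusters of T-to-C changes in the sequenced fragments. Input RNA passes through the same labeling and irradiation and holds contacts of every RNA-binding protein in the extract, so its clusters follow where abundant RNA is bound by any protein.

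Examples of regions on both sides of the comparison are given first, on GRCh38 and in the direction of transcription. A region is a stretch covered by overlapping clusters on the same strand. The first set shows what a cluster in a coding exon looks like: the 4 short regions wholly inside a coding exon, in different genes, with the highest mean score among those held by all 3 SCAF8 IP lists and by no input of any line and no parental IP list. KMT2A is a histone H3 lysine methyltransferase, MRE11 a nuclease of DNA break repair, RNF213 a very large ubiquitin ligase and ATXN1L a chromatin-binding repressor. Capitals mark CGG or CGA and CTCC or CACC, motifs searched on the transcribed strand only and counted over all clusters further on.
KMT2A, exon 4, chr11:118473928-118474063, + strand: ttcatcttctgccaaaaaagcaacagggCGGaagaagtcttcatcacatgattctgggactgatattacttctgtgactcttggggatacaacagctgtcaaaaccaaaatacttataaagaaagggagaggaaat
MRE11, exon 15, chr11:94447230-94447367, - strand: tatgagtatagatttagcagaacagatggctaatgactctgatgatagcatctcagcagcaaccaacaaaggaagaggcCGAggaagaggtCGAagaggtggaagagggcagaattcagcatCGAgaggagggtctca
RNF213, exon 12, chr17:80306267-80306414, + strand: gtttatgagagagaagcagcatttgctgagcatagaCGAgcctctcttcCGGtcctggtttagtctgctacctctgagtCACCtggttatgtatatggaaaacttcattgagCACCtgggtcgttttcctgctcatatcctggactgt
ATXN1L, exon 3, chr16:71851480-71851629, + strand: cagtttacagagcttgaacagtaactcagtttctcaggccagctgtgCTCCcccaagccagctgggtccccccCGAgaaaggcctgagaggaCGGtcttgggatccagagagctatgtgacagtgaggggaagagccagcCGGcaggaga

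The second set was chosen after the values were seen, because clusters over 5′ splice sites set the IP lists apart. It gives 3 of the highest scoring regions, from other genes and held by the same lists, that ran from a coding exon, in capitals, into the intron that follows, in lower case. They were taken from 658 regions over a 5′ splice site. GTF2F1 is a subunit of the RNAPII initiation factor TFIIF and OGT the O-GlcNAc transferase.
GTF2F1, exon 7, chr19:6381670-6381809, - strand: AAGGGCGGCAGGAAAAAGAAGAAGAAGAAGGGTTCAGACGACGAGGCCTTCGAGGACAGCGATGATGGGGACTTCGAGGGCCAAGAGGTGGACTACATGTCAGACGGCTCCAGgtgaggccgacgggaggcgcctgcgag
OGT, exon 18, chrX:71563379-71563529, + strand: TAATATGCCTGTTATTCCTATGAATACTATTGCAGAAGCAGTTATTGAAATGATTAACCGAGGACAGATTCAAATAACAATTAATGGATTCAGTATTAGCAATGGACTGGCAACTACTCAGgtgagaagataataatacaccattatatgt
FAM98C, exon 5, chr19:38405362-38405516, + strand: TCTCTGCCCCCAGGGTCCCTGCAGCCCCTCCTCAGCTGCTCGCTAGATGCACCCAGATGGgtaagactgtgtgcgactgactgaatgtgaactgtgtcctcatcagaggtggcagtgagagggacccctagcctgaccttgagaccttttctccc

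In the third set are coding-exon regions of the input side, with the same 2 motif groups in capitals. None of the 26 regions held by all 3 inputs and no SCAF8 IP list met the rule, so regions of at least 2 inputs were used, a choice made after seeing this. The 3 with the highest mean score are shown, of DDX46, a spliceosomal helicase, the transcription factor SP3 and the membrane protein TMEM109.
DDX46, exon 17, chr5:134811232-134811350, + strand: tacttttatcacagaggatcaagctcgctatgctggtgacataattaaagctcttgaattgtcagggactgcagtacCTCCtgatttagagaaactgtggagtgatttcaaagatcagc
SP3, exon 4, chr2:173955349-173955485, - strand: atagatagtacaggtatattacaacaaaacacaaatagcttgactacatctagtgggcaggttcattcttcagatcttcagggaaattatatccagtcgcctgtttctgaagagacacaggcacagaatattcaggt
TMEM109, exon 4, chr11:60921828-60921958, + strand: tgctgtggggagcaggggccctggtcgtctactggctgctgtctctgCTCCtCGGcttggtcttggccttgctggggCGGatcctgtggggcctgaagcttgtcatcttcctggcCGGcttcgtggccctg

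The SCAF8 IP lists held 25189, 18287 and 41502 clusters for replicates 1, 2 and 3, and the inputs of the same extracts held 9146, 10361 and 9008. Every IP list was longer than every input list, and the difference was 1.495 on the log2 scale. In the FLAG-SCAF4 line the IP and input means were 35786 and 7207 clusters, and in the parental line 4524 and 7380, so the parental IP was the shorter list. Replicate 1 was sequenced with longer reads than replicates 2 and 3, and results without it are therefore within 1 read length. The lists give positions and a score but no reads, so that read depth is unknown and differences of depth between IP and input could not be told apart from differences in recovery. With 3 lists a side, the exact permutation test of the 6 list labels cannot give a two-sided p below 0.1, and exact sign flips of the 3 pairs cannot go below 0.25. The study calls its replicates biological, but the labels do not say whether they were separate cultures, and p-values measure only the spread between these lists. Of 42 measures compared, 29 had IP and input lists that did not overlap, 17 with the IP above and 12 below. Each of those had the smallest p, 0.1 (0.145 after Benjamini-Hochberg adjustment over the 42).

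The SCAF8 gene itself (chr6:154733416-154834221, + strand, 20 exons) checks the line, since the construct adds coding SCAF8 RNA. The 3 SCAF8 inputs held 18, 20 and 18 clusters over the gene, of which 11, 16 and 16 lay in coding sequence, while the 3 parental inputs held 10, 3 and 5 clusters with 1, 0 and 0 in coding sequence. Coding-sequence clusters of SCAF8 thus stood out in the inputs of the FLAG-SCAF8 line, as the labels have it. The SCAF8 IP lists held 23, 20 and 27 clusters over the gene, 16 of them coding in each list. Per 10000 clusters of the list this was 9.13, 10.9 and 6.51 in the IP against 19.7, 19.3 and 19.98 in the input, so the tagged protein's own mRNA had a lower share of the IP in all 3 pairs. SCAF4, the paralog, held 4, 5 and 11 clusters in the IP and 3, 3 and 4 in the input.

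Clusters of the SCAF8 IP lay more in coding sequence and less in 3′ UTRs than those of the input. The CDS (protein-coding sequence) held 37.0%, 41.7% and 35.2% of IP clusters and 22.2%, 32.9% and 30.4% of input clusters. In 3′ UTRs the values were 16.6%, 12.1% and 13.3% for the IP and 23.7%, 22.6% and 24.1% for the input. The means were 38.0% ± 3.34 against 28.5% ± 5.61 (SD, n = 3) for the CDS and 13.99% ± 2.31 against 23.5% ± 0.789 for 3′ UTRs. No IP list overlapped an input list in either class. In lists of the same length the 3′ UTR difference was -5.04 percentage points in place of -9.51, also without overlap. The share of 5′ UTRs was also higher in every IP list, at 2.68%, 3.21% and 2.92% against 1.37%, 2.22% and 2.23% of input clusters.

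Beyond mRNA exons, several classes had lower shares in the IP. Small RNA genes, which include small nuclear and small nucleolar RNAs, held 0.814%, 0.837% and 0.472% of IP clusters and 1.80%, 1.32% and 1.63% of input clusters. Other noncoding genes, a class that counts these small RNA genes again beside others such as pseudogenes, were at 3.36% ± 0.499 against 4.51% ± 0.237. The rest of that class without the small RNA genes was not compared. Introns of lncRNA genes were at 1.69% ± 0.0849 against 2.09% ± 0.199. Exons of lncRNA genes overlapped, at 1.66% ± 0.0271 and 1.66% ± 0.105. Clusters outside genes and their 2000 nt flanks made up 6.37% ± 0.812 of the IP and 7.58% ± 0.243 of the input, again without overlap. Introns of protein-coding genes did not set the lists apart, with 25.4% ± 2.25 in the IP and 23.7% ± 6.33 in the input. All exons of protein-coding genes together did not either, at 54.9% ± 3.05 and 53.9% ± 5.78. In the full lists the difference therefore lay in which exon parts held the clusters. This depended on list length and score. For all exons the IP-minus-input difference was 0.955 percentage points in the full lists, 7.42 in lists of the same length and 3.99 with scores at or above the median. For introns it was 1.75, -2.09 and -2.06.

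**Figure D1:**
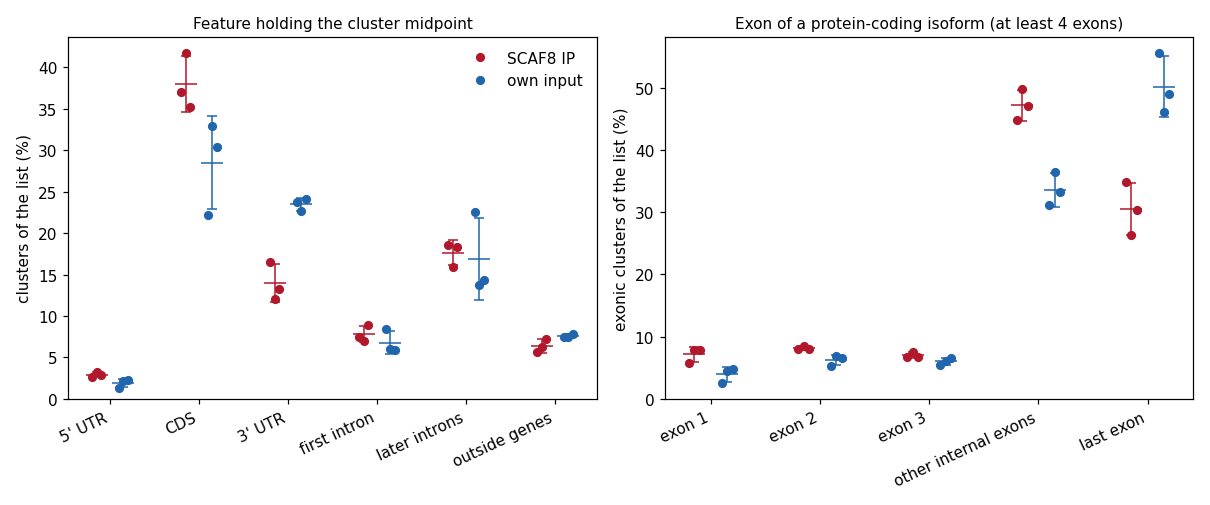
Share of clusters by annotated feature (left, percent of all clusters of a list) and by exon of protein-coding isoforms with at least 4 exons (right, percent of exonic clusters) in the 3 SCAF8 IP lists (red) and their own inputs (blue). Points are lists, bars the mean and SD. IP points for the last exon lie between 26.3% and 34.8%, all below the input points, which lie between 46.1% and 55.5%.

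Several of these differences were also seen in the parental line, whose IP contains no tagged protein. There the CDS share was 21.7% in the input and 39.6% in the IP, and the pair differences of 16.3, 20.7 and 16.6 percentage points were all above the 14.9, 8.78 and 4.73 of the SCAF8 line. For 5′ UTRs the mean pair difference was 1.05 percentage points in the parental line and 0.999 in the SCAF8 line. The 3′ UTR share behaved otherwise. It was 14.2% and 15.9% in parental IP and input, with pair differences of -0.598, 1.23 and -5.82 percentage points, against -7.17, -10.5 and -10.8 in the SCAF8 line (two-sided exact permutation p = 0.1, the smallest possible). Small RNA genes went the opposite way, from 2.06% of parental input clusters to 3.78% of parental IP clusters. Among the 42 measures, 19 had the smallest p of 0.1 for a difference between the SCAF8 and parental pairs (0.221 after Benjamini-Hochberg adjustment), and 10 had it for a difference from the SCAF4 pairs (0.42 after adjustment).

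Within mRNAs, IP clusters lay less in the last exon and more in the exons upstream of it. Of exonic clusters in isoforms with at least 4 exons, the last exon held 34.8%, 26.3% and 30.3% in the IP and 55.5%, 46.1% and 48.9% in the input. Exon 1 held 5.77%, 7.84% and 7.94% against 2.60%, 4.53% and 4.78%. Both differences had the same direction in all 3 pairs, with IP and input lists apart. Exon 2 was at 8.15% ± 0.310 against 6.23% ± 0.811, exon 3 at 7.03% ± 0.491 against 6.03% ± 0.514, and the other internal exons together at 47.2% ± 2.495 against 33.6% ± 2.73. For the last exon the pair differences were -20.75, -19.8 and -18.5 percentage points for SCAF8, which overlap the -12.2, -12.3 and -24.0 of parental cells. For exon 1 they were 3.18, 3.30 and 3.16 against 1.97, 0.948 and 2.11, which do not. Exons 2 and 3 had mean pair differences of 1.93 and 1.00 percentage points for SCAF8, against 2.29 and 1.28 in parental cells. For the other internal exons the means were 13.5 and 10.9.

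The same shift was read from the position of each cluster along the spliced mRNA, where 0 is the 5′ end and 100 the 3′ end. The median position was 36.4, 33.1 and 34.5 in the IP lists and 46.5, 42.7 and 43.7 in the inputs, so the IP median lay 9.60 units closer to the 5′ end. The first 10% of the mRNA length held 12.7%, 15.3% and 14.8% of exonic IP clusters and 7.33%, 9.77% and 9.91% of exonic input clusters. In the last 10% were 4.93%, 3.76% and 4.295% against 7.26%, 5.87% and 6.33%. IP lists were all above input lists in the first 3 of 10 equal parts of the mRNA and all below them from part 5 on, and the lists overlapped in part 4. Inside the CDS alone the median was 44.3 ± 0.644 in the IP and 48.5 ± 0.905 in the input, whereas it was 48.3 and 48.4 in parental IP and input. For this measure the SCAF8 and parental pair differences did not overlap (two-sided exact permutation p = 0.1). Along the whole mRNA the parental IP lay in the same direction as the SCAF8 IP, with pair differences of the median position of -5.45, -4.08 and -9.12 against -10.1, -9.56 and -9.13, and of the first 10% of 2.90, 2.48 and 3.75 against 5.36, 5.55 and 4.85 percentage points.

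**Figure D2:**
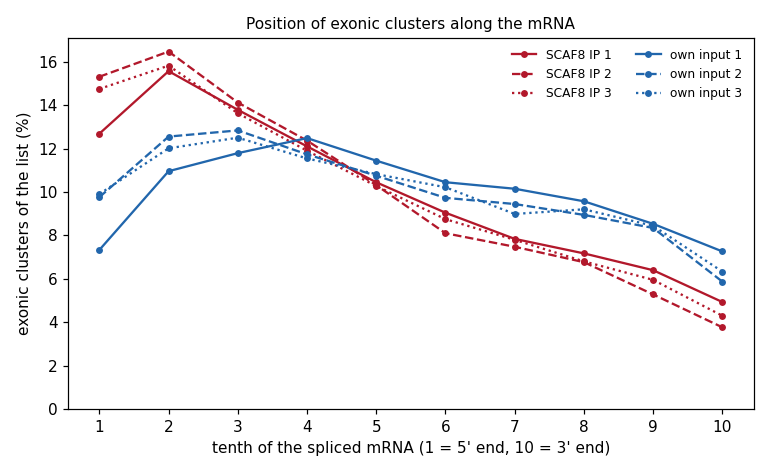
Share of exonic clusters (percent of the list) in each of 10 equal parts of the spliced mRNA, from 1 at the 5′ end to 10 at the 3′ end, for the 3 SCAF8 IP lists (red) and their inputs (blue), with 1 line per list. The IP lines start at 12.7% to 15.3% and end at 3.76% to 4.93%, and the input lines start at 7.33% to 9.91% and end at 5.87% to 7.26%.

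Since IP and input lists cover partly different genes, the comparison was repeated, after seeing the data, within genes that held at least 3 exonic clusters in both lists of a pair. This left 433, 571 and 560 genes in replicates 1, 2 and 3. The mean over genes of the median position was 40.2, 38.1 and 39.7 in the IP and 47.0, 44.02 and 45.2 in the input. The IP median was the more 5′ one in 69.0%, 64.1% and 64.3% of these genes. Last exons held on average 45.3%, 37.1% and 44.4% of a gene's exonic clusters in the IP and 55.8%, 46.0% and 53.4% in the input. Of the exonic clusters of these genes, 40.2%, 39.8% and 39.3% on average overlapped a splice site in the IP and 24.1%, 23.4% and 20.7% in the input. The median position differed by -6.83, -5.88 and -5.54 in these genes, and by -4.36, -1.90 and -5.51 in the 410, 75 and 34 such genes of the parental pairs. Within the same genes the 5′ shift therefore had the same sign in each pair. Its size is a mean over genes of their medians, so it cannot be set directly against the median over all clusters.

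Splice sites set IP and input apart. A cluster counted as overlapping a 5′ splice site, the exon end at which an intron starts, when it had nucleotides on both sides of it. Of clusters in protein-coding gene bodies, 17.6%, 21.6% and 20.04% of IP clusters and 9.35%, 10.0% and 10.2% of input clusters overlapped a 5′ splice site. At 3′ splice sites, where introns end, the values were 16.01%, 16.1% and 15.3% against 8.55%, 7.87% and 7.38%. Either site was overlapped by 29.4% ± 1.96 of IP clusters and 15.3% ± 0.424 of input clusters. A 5′ and a 3′ site together were overlapped by 6.23% ± 0.185 and 2.46% ± 0.431. This last count did not separate clusters over a whole exon from those over a whole short intron. The aligner used by the authors does not split reads over introns, and the part of spliced reads that end close to a junction was not tested. Regions such as those printed for GTF2F1, OGT and FAM98C belong to this class.

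The 5′ splice site was also where the SCAF8 IP stood apart from the parental IP. The pair differences of the 5′ site were 8.27, 11.6 and 9.81 percentage points in the SCAF8 line, 10.2, 15.3 and 15.5 in the SCAF4 line and 4.95, 1.62 and 3.81 in the parental line. SCAF8 and parental differences did not overlap (two-sided exact permutation p = 0.1). At the 3′ splice site the SCAF8 pairs differed by 7.46, 8.26 and 7.90 percentage points and the parental pairs by 8.14, 2.17 and 12.9, which overlap. Because a larger share of coding exons brings more splice sites with it, the share was also taken within coding-exon clusters alone, a measure added after seeing the data. It was 33.4%, 35.6% and 37.3% for the 5′ site in the SCAF8 IP and 28.0%, 20.8% and 23.3% in its input. In the parental line it was lower in the IP, at 19.3% against 23.3% on average.

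**Figure D3:**
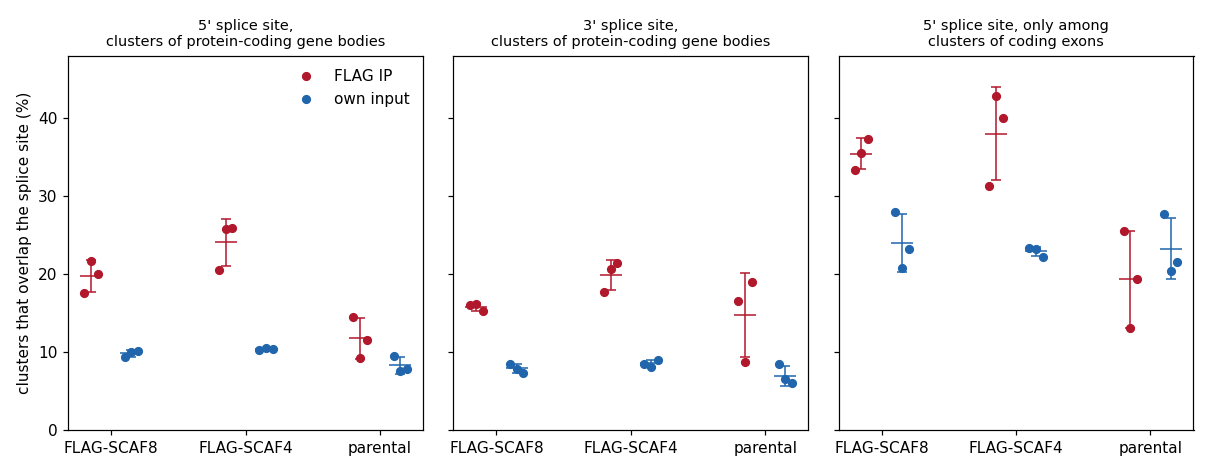
Percent of clusters that overlap a 5′ splice site (left) or 3′ splice site (middle) among clusters of protein-coding gene bodies, and a 5′ splice site among coding-exon clusters only (right), in FLAG IPs (red) and own inputs (blue) of the FLAG-SCAF8, FLAG-SCAF4 and parental lines. Points are lists, bars the mean and SD of 3 lists. In the right panel the SCAF8 IP lists lie at 33.4% to 37.3%, above their inputs at 20.8% to 28.0%, while parental IP and input overlap.

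Among clusters of exon 1, those over its 5′ splice site made up 32.4%, 33.6% and 38.0% in the IP and 28.0%, 22.3% and 26.5% in the input. Intronic clusters that reached a splice site were 12.2% ± 1.69 of intronic IP clusters and 4.75% ± 0.425 of intronic input clusters. This last measure was higher still in the parental IP, at 19.1% against 4.36% in its input. Exonic clusters away from any splice site had a lower share of the IP, 34.4% ± 2.33 against 43.1% ± 5.29 of all clusters. In replicate 1 the pair was close, at 36.4% against 37.0%. In the parental line this share was higher in the IP, at 42.6% against 30.8% on average. Genes that held IP clusters had more exons, with a median of 13 over clusters in each IP list and of 11, 10 and 10 in the inputs.

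IP clusters were spread over more genes. At least 1 cluster was found in 7047, 5344 and 8635 genes in the IP lists and in 3347, 3841 and 3468 genes in the inputs, with 3.32, 3.11 and 4.301 against 2.48, 2.43 and 2.33 clusters per such gene. The 10 genes with most clusters took 1.74%, 2.38% and 1.65% of an IP list and 3.17%, 2.82% and 3.02% of an input list. When each list was cut to its 9008 highest scoring clusters, the length of the shortest list, IP lists still touched more genes, by 521 on average, and clusters per gene were then lower in the IP by 0.25. Of IP clusters, 23.8%, 35.7% and 18.1% overlapped a cluster of their own input, and of input clusters 65.3%, 62.7% and 84.3% overlapped a cluster of their own IP. The latter share depends on list length and was 27.6% on average in lists of the same length, against 70.7%.

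The sequence around the clusters also differed. In 100 nt of the transcribed strand around the midpoint, C made up 21.5% ± 0.347 of bases in the IP and 20.02% ± 1.06 in the input, and A 24.95% ± 0.129 against 26.1% ± 0.443. CGG or CGA was present in 62.1%, 68.2% and 65.9% of IP windows and in 49.2%, 61.2% and 60.3% of input windows. CTCC or CACC was found in 47.5% ± 0.969 against 42.3% ± 3.78 of windows. AATAAA, the core of the polyadenylation signal, was in 3.26%, 2.89% and 3.04% of IP windows and 4.89%, 3.88% and 4.03% of input windows. All of these were apart in the 6 lists. G (27.7% ± 0.818 against 25.96% ± 1.28), T (25.9% ± 1.11 against 27.9% ± 1.92), a run of 6 T (4.22% ± 0.805 against 6.44% ± 2.08) and windows with GCAGC or with GCAGG or with CCAGC or with CCAGG (41.6% ± 3.13 against 34.3% ± 4.89) overlapped. Parental IP and input differed on average in the same direction for each measure that was apart in the 6 lists. The averages were 70.9% against 56.7% for CGG or CGA, 48.3% against 40.2% for CTCC or CACC and 2.41% against 4.32% for AATAAA. For C they were 21.9% against 19.5% and for A 25.2% against 26.6%. Each of these mean differences was larger than that of the SCAF8 line. The CDS share moved with these measures, and its part in them was not tested.

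Which genes gained or lost clusters was tested with limma on the log2 share of each gene, for 4413 genes with at least 6 clusters over the 6 lists. No gene passed an adjusted p of 0.05, that is 0% in either direction. At an unadjusted p of 0.05 there were 1002 genes, and the smallest adjusted p was 0.0964. A quasi-Poisson model of the numbers of clusters called 0 genes too, with 477 at the unadjusted threshold. Since each IP and its input share an extract, the fit with the replicate number as a block is given beside it. It called 89 genes with a higher share in the IP (2.02%) and 317 with a lower share (7.18%). This split depended on how genes with 0 clusters in a list were treated: with a prior count scaled to the length of each list in place of 0.5 in every list, 426 genes had a higher share (9.65%) and 64 a lower one (1.45%), and the median log2 change over all genes was 0.39 in place of -0.12. Of the genes called with the block, 82 of the 89 had shares above the input without overlap and 253 of the 317 had shares below it. Which genes passed, and the balance between the directions, was therefore not settled by these lists. The genes are described below by their numbers of clusters.

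By number, 1615 of 4413 genes (36.6%) had more clusters in every IP list than in any input list, and 4 genes (0.0906%) had fewer. By share of the list, 687 genes (15.6%) were above and 675 (15.3%) below without overlap. Of those 675 genes, 581 had a mean number of IP clusters at or above that of the input, so that a lower share mostly went with an equal or higher number of clusters in a longer list. With lists cut to the same length, 201 genes (4.55%) were above and 287 (6.5%) below. There were 541 genes tested without a cluster in any input. They passed the minimum of 6 clusters through the IP lists alone, which hold 74.9% of the clusters, so this number says little about the genes.

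The 5 genes with the highest mean share of the IP lists were ANKRD11, DNAH17, PRKDC, POLE and DAZAP1, and only POLE among them had shares apart from the input. POLE, the catalytic subunit of DNA polymerase epsilon, held 36, 50 and 61 clusters in the IP and 6, 8 and 7 in the input. Its share was 14.3, 27.3 and 14.7 per 10000 against 6.56, 7.72 and 7.77, apart in all lists, with a log2 change of 1.19 ± 0.35 (SE; limma adjusted p = 0.0964, and 0.00392 with the replicate block). ANKRD11, a chromatin regulator, held 84, 34 and 80 clusters against 28, 16 and 11, and its shares overlapped. DNAH17, an axonemal dynein heavy chain, had 2, 58 and 105 IP clusters and 0, 31 and 18 input clusters, so IP and input followed each other across replicates and set replicate 1 apart. PRKDC, the DNA-dependent protein kinase, had 37, 46 and 71 against 15, 20 and 20 clusters and mean shares of 18.98 and 19.3 per 10000. DAZAP1, an RNA-binding protein, had 37, 48 and 58 against 14, 33 and 30 clusters and was among the 5 highest on both sides.

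On the input side, SF3B3, a subunit of the U2 snRNP factor SF3B, held 21, 31 and 26 clusters in the input and 26, 28 and 46 in the IP. Its mean share was 27.2 per 10000 in the input and 12.2 in the IP. For HNRNPU, a nuclear matrix-associated hnRNP, the numbers were 31, 25 and 21 in the input and 29, 28 and 32 in the IP, and for SMC1A, a cohesin subunit, 21, 26 and 26 against 34, 33 and 47. These 3 genes had lower shares in every IP list, while their mean numbers of clusters were higher in the IP than in the input, with limma adjusted p = 0.0964 each and between 0.000208 and 0.0119 with the replicate block. The remaining gene among the 5 is not reported here.

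Genes called in the fit with the replicate block were named after their values were seen. Among the 12 with the largest increase, MAN2C1, a cytosolic alpha-mannosidase, held 8, 10 and 17 clusters in the IP lists and 0 in each input. PIEZO1, a mechanically activated ion channel, held 14, 11 and 25 against 0, 1 and 0, and RAD54L, a DNA translocase of homologous recombination, 12, 11 and 15 against 0, 0 and 1. For these 3 genes no IP list came near an input list in number, and the log2 changes of the limma fit without the block were 3.02, 2.98 and 2.64 (adjusted p = 0.0964 each). These sizes rest on the count added to each list. They were 2.09, 2.23 and 1.90 with 1 cluster added, and 4.04, 3.80 and 3.39 with the scaled prior. Genes with 0 clusters in each input, such as MAN2C1, passed the minimum of 6 clusters through the IP lists alone. The ribosome biogenesis gene URB1 held 12, 8 and 20 against 0, 0 and 1, the nuclear pore gene NUP214 12, 4 and 5 against 0, and the separase gene ESPL1 12, 5 and 16 against 0, 1 and 0. DYNC2H1, the dynein of cilia, held 8, 4 and 7 clusters against 0 in each input, and the ubiquitin ligase gene HERC2 6, 2 and 14 against 0. BLTP2, RABL6, PACSIN2 and the lncRNA ENSG00000291003 completed the 12. The 89 genes called had a median length of 43.2 kb and 22 exons, against 28.9 kb and 10 exons over all genes tested. These medians describe the genes picked by this fit, and the part of the filter and calling rule in them was not tested.

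Few genes had fewer clusters in the IP. HSBP1, a binding protein of heat shock factor, held 1, 0 and 1 clusters in the IP and 3, 3 and 2 in the input (log2 change -3.06 ± 0.50, limma adjusted p = 0.0964, and 0.000183 with the block). MZT1, a component of gamma-tubulin complexes, held 1, 0 and 1 against 2, 2 and 2, UBB, a polyubiquitin gene, 2 in each IP list against 3 in each input, and the histone gene H2AC18 1 against 2 in each list. These 4 were all genes in which every input exceeded every IP list in number. Others among the 12 with the largest decrease in share had few clusters on either side, such as MARCKS, an actin-binding substrate of protein kinase C, with 2, 0 and 1 against 3, 2 and 2, GOT2, a mitochondrial aspartate aminotransferase, with 1, 0 and 3 against 2, 2 and 3, and the cofilin gene CFL2 with 0, 0 and 3 against 1, 2 and 2. LPGAT1, TMEM167A, SPCS2, LINC01962, TMEM123, TRAM1 and the pseudogene MTND1P15 were the rest, and reads of MTND1P15 and H2AC18 may be shared with near-identical copies. The 317 genes called down had a median length of 15.4 kb and 6 exons, where the part of the calling rule was not tested either.

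Lists of genes were then compared by function. Long genes of motor and linker proteins held 36.9, 42.7 and 36.9 clusters per 10000 in the IP and 12.0, 23.2 and 17.8 in the input, and 5 of the 12 tested members were above without overlap, where 15.6% of all genes tested were. Cytoplasmic dynein DYNC1H1, with 16, 17 and 34 against 2, 4 and 2 clusters, and MDN1, an AAA ATPase of ribosome assembly, with 14, 21 and 31 against 1, 4 and 2, were among them. Genes of lysine methyltransferases and chromatin remodelers held 66.4 ± 2.41 per 10000 in the IP and 36.8 ± 2.48 in the input, with 6 of 19 members above (15.6% of all genes) and none below (15.3%). SRCAP, a remodeler of histone H2A.Z, had 26, 21 and 37 clusters against 3, 4 and 2, and KMT2B, a histone H3 lysine methyltransferase, 6, 8 and 12 against 1, 0 and 0. Very large ubiquitin ligases were at 45.1 ± 0.768 against 31.4 ± 3.51, with 4 of 10 members above, and kinases related to PI3K at 33.4 ± 6.14 against 26.7 ± 0.930, with 3 of 6 above. The kinases overlapped between IP and input in lists of the same length. Median log2 changes in these 4 lists were 0.60 to 0.83, beside -0.12 over all genes.

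Lists for the machinery of transcription and RNA 3′ ends overlapped between IP and input. RNAPII subunits were at 11.1 ± 1.71 against 6.997 ± 3.41 per 10000, termination and nuclear exosome factors at 35.9 ± 4.02 against 27.8 ± 4.87, and cleavage and polyadenylation factors at 25.8, 24.6 and 24.6 against 25.2, 29.9 and 26.6. Among elongation factors, SUPT5H held 10, 11 and 14 clusters in the IP and 1, 1 and 3 in the input, and SUPT6H 4, 3 and 7 against 0 in each input, whereas CCNT1, the cyclin of P-TEFb, held 5, 2 and 10 against 4, 6 and 4. For the list as a whole the values were 27.9 ± 1.46 and 24.4 ± 7.85 per 10000, and in lists of the same length the IP was above the input without overlap. Proteins with a CTD-interacting domain, the family of SCAF8 itself, were listed together with the CTD-associated SCAF1 and SCAF11. As a list they were lower in the IP at 32.8 ± 4.78 against 45.0 ± 4.69. That list is weighted by the SCAF8 gene of the construct, and 8 of its 10 members overlapped, among them PCF11 with 4, 0 and 1 against 0, 1 and 0.

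Lower summed shares in the IP were found for SR and hnRNP genes, chaperones, translation factors, cytoskeletal and glycolytic mRNAs and ribosomal protein genes. SR splicing factors held 78.2, 91.9 and 59.3 per 10000 in the IP and 155, 122 and 132 in the input, and 7 of 15 members were below with none above, where 15.3% of all genes were below. The same background applies to the counts that follow. SRSF2, a splicing activator, had 5, 6 and 8 IP clusters against 10, 6 and 7, and SRRM2, a spliceosome scaffold, 26, 21 and 25 against 21, 21 and 19. The hnRNP genes were at 122 ± 34.1 against 200.4 ± 17.95 with 10 of 23 below, chaperones at 61.9 ± 12.6 against 104 ± 8.44 with 7 of 23 below, and translation factors at 102 ± 18.4 against 136 ± 2.85 with 8 of 30 below. Cytoskeletal and glycolytic mRNAs were at 37.3 ± 9.10 against 76.1 ± 6.09 with 10 of 19 below. Cytoplasmic ribosomal protein genes held 145 ± 27.3 against 204 ± 13.4, with 15 of 76 below and 2 above, so the share of members below was near the 15.3% of all genes. The mean number of clusters was nonetheless higher in the IP for each of these lists, and hnRNP genes had 306, 285 and 364 IP clusters against 202, 194 and 174.

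The lowest ratios were those of replication-dependent histones, at 19.3 ± 6.04 per 10000 against 50.7 ± 4.298 with 22 of 31 members below, and of nuclear retained and small nuclear RNAs, at 23.7 ± 7.86 against 50.8 ± 1.48 with 11 of 13 below. The median log2 change of the members tested was -1.56 in both lists, the value of a gene with 1 cluster in each of the 6 lists. Such a gene falls below by share through list length alone, because every IP list was longer than every input list. The numbers of members below therefore say little about these genes. H3C2, a histone H3 gene, and RN7SK, the RNA that holds P-TEFb inactive, each had exactly 1 cluster in all 6 lists, which made a log2 change of -1.56 in shares. NEAT1, the scaffold RNA of paraspeckles, had 43, 23 and 34 clusters in the IP and 30, 26 and 16 in the input. Histone totals were 54, 44 and 52 clusters in the IP and 45, 49 and 50 in the input, which overlap. Host genes of snoRNAs overlapped at 17.8 ± 1.55 against 23.1 ± 9.74, and none of the 15 mitochondrially encoded genes held a cluster.

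In lists of the same length every gene list with a lower share in the IP remained below without overlap, and 3 of the 4 with a higher share remained above. The same lists were apart in the same direction in the FLAG-SCAF4 line. In the parental line IP and input overlapped for all of them, whose IP lists held fewer clusters, and elongation factors were above the input there.

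**Figure D4:**
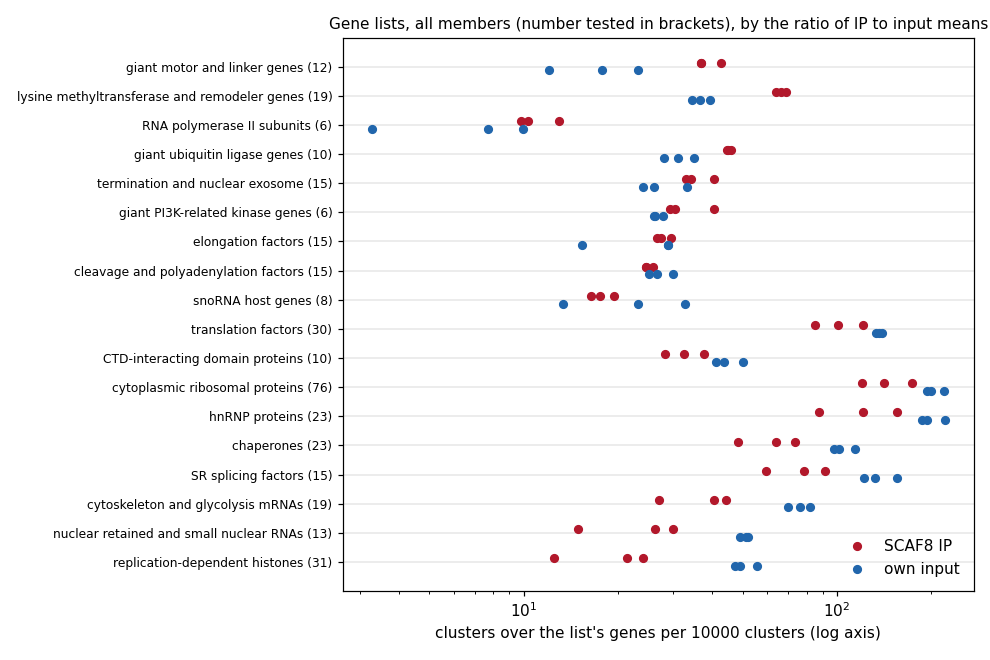
Clusters over all genes of each list per 10000 clusters (log axis) in the 3 SCAF8 IP lists (red) and 3 inputs (blue), ordered by the ratio of means, with the number of genes tested in brackets. Motor and linker genes at the top were at 36.9 to 42.7 in the IP and 12.0 to 23.2 in the input, and histones at the bottom at 12.5 to 24.1 and 47.3 to 55.5.

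Merging the clusters of the 6 lists gave 54511 regions. Of these, 2830 were held by all 3 IP lists and no input list, 2217 by all 6 lists, and 26 by all 3 inputs and no IP list. A further 26361 regions (48.4%) were seen in a single IP list. The 2830 regions lay in 1849 genes. In coding sequence were 53.8% of them against 33.7% of the regions held by all 6 lists, in 3′ UTRs 6.50% against 25.4%, and over a splice site 52.0% against 43.7%. Regions held by all 6 lists were the longer ones, at 297 nt against 198 nt (medians). Regions of at least 2 inputs and no IP list, 243 in number, had 6.58% in coding sequence, 31.7% in 3′ UTRs and 2.30% over a splice site. IP-side and input-side regions thus differed in the same features as the clusters themselves, from which they were made.

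POLE had the most regions of the first kind, 19, followed by ANKRD11 with 11 and by DNMT1, the maintenance DNA methyltransferase, and FANCA, a Fanconi anemia core protein, with 8 each. DNMT1 held 25, 30 and 54 clusters in the IP and 6, 10 and 10 in the input, and FANCA 39, 31 and 44 against 10, 9 and 5. Of the 2830 regions, 94.3% were also held by at least 1 FLAG-SCAF4 IP list and 54.1% by all 3. At least 1 parental IP list held 29.6% and all 3 held 0.389%. FLAG-SCAF4 IP lists held 35786 clusters on average and parental IP lists 4524, and longer lists hold more regions. The part of list length was not tested and the same shares over all regions were not taken, so these percentages do not compare the 2 lines. An input of another line held 38.0%. Neither a parental IP list nor another input held 1396 of them, from which the printed KMT2A, MRE11, RNF213 and ATXN1L regions were drawn, and 125 were in no other list of the series.

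**Figure D5:**
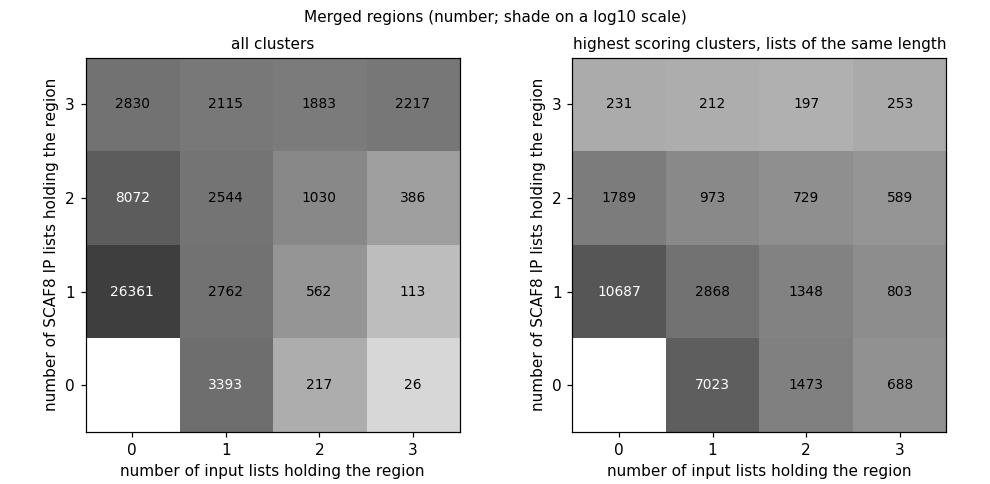
Number of merged regions by how many SCAF8 IP lists (vertical, 0 to 3) and input lists (horizontal, 0 to 3) hold them, with shade on a log10 scale, for all clusters (left) and for the highest scoring clusters with every list cut to the same length (right). Regions of 3 IP lists and no input number 2830 on the left and 231 on the right, and those of 3 inputs and no IP list 26 and 688.

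These counts depend on the length of the lists. With every list cut to its 9008 highest scoring clusters, 231 regions were held by all 3 IP lists and no input and 688 by all 3 inputs and no IP list, so the order turned.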

How the data were processed

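Processed PAR-CLIP cluster lists of 3 SCAF8 IPs and their 3 inputs were analysed, with 12 lists of the FLAG-SCAF4 and parental lines beside them. Per the labels the submitters' processing used bcl2fastq 1.8, cutadapt, Trim Galore, Bowtie2 2.2.9, Picard and the GRCh38 build, and the authors called clusters with PARalyzer on the combined soluble and chromatin reads of a replicate. The deposited lists precede the authors' filters against input and control, and give each cluster a position, strand and score that does not count reads, so depth and counting errors are unknown. The members, measures, motifs and gene lists were chosen with earlier results of these data known.

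Clusters were assigned by midpoint and strand to GENCODE 44 genes (650 readthrough genes left out), and protein-coding exons took precedence over small RNAs, introns, other genes and 2000 nt flanks. The isoform whose exons summed to the greatest length gave exon ranks and mRNA positions. Python 3.11.15, pandas 2.3.3, bedtools 2.31.1 and samtools 1.23.1 were used. Lists were compared by two-sided exact permutation tests. Genes with at least 6 clusters over the 6 lists were tested with limma 3.58.1 in R 4.3.3 on weighted log2 shares per 10000 clusters with 0.5 clusters added, Benjamini-Hochberg adjusted over all 4413 genes at a threshold of 0.05. The procedure was tested on simulated data, where it recovered few of the changed genes and false calls exceeded the nominal share.

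IP and input of equal replicate number come from the same extract per the labels and methods. Deviations of same-numbered lists from their group means correlated across 4413 genes with r = 0.348, 0.169 and 0.0909, and those of different numbers with r between -0.258 and 0.142. These values are not independent, because deviations from a group mean cancel within the group. The r of 0.142, for IP 2 with input 3, was above that of replicate 3, whose pairing they therefore do not show. Genes named are the 12 with the largest log2 change in each direction among those called without overlapping shares, the 5 with the highest mean share on each side, SCAF4, SCAF8 and called members of the lists. As nothing was called without the replicate block, the blocked fit was used for the first, and other list members were named after their values were seen. Alternatives varied the isoform, midpoint rule, list length, score, prior count, filter, block and replicates. The labels give 100 ng/mL doxycycline for the SCAF4 and SCAF8 lines only, whereas the methods give a higher concentration and include the parental line. One region is not reported here.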

Additional observations from a re-analysis of the deposited data

Results flagged for a closer look

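Some measures had IP-minus-input differences of 1 sign in all 3 SCAF8 pairs and of the opposite sign in all 3 parental pairs. For each, the exact two-sided permutation p over the 6 pair differences was 0.1, the smallest that 3 against 3 can give. On the log2 scale, list length differed by 1.495 in the SCAF8 line and by -1.001 in the parental line, a gap of 2.496. The number of genes with a cluster changed by 3457 in the SCAF8 line and -724 in the parental line, a gap of 4181 genes. Clusters per such gene changed by 1.17 and -0.42, a gap of 1.59. Overlap with the other list of the same extract differed by -44.9 percentage points in the SCAF8 line and by 29.0 in the parental line, a gap of -73.9. In a pair, both percentages count nearly the same overlaps over lists of different length. The sign of this difference therefore follows from which list is longer, and its p adds nothing to list length. Small RNA genes differed by -0.878 percentage points in the SCAF8 line and 1.72 in the parental line, a gap of -2.60. Other noncoding genes, which include the small RNA genes and are not a separate result, differed by -1.15 and 3.45 percentage points, a gap of -4.60. List length moved with all of these, since the parental IP lists were the shorter ones. In SCAF8 lists of the same length, the IP-minus-input difference was 521 genes, -0.249 clusters per gene and -1.87 percentage points for other noncoding genes. The gaps to the parental line were not taken in lists of the same length, so the part of list length in them was not tested.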

How the results depend on the processing

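Over the alternatives, 276 of 293 comparisons of the 42 measures kept their direction, and of 172 comparisons of the 29 measures without overlap 165 still had none and 1 reversed, clusters per gene in lists of the same length (-0.249). IP and input overlapped for other noncoding genes with scores at or above the median (-0.176), for clusters outside genes with nucleotides in place of midpoints (-0.699) for exon 1 (3.03) and exon 3 (1.29) with scores at or above the median, and for exon 3 (0.515) and CGG or CGA (7.03) in lists of the same length. The other reversals were of measures whose lists overlapped, and the cause was not tested for any. In lists of the same length and with scores at or above the median, the IP-minus-input difference in percentage points was -0.414 and -0.133 for antisense clusters, -0.474 and -0.238 for first introns, -1.61 and -1.83 for later introns and -2.09 and -2.06 for all introns. With nucleotides in place of midpoints it was -0.884 for protein-coding exons and -0.845 for lncRNA exons, and -0.0281 for the latter with the canonical isoform. Leaving out 1 replicate pair gave -3.08 to 4.14 for protein-coding exons, -0.851 to 5.05 for introns, -0.886 to 3.09 for later introns, -0.0512 to 0.069 for lncRNA exons, -1.50 to 6.00 nt for median cluster length and -2.63 to 2.78 for intronic clusters without a splice site. Of SCAF8 differences against other lines it gave -1.46 to 0.976 for 3′ UTRs, -0.142 to 0.146 for 5′ UTRs and -1.61 to 0.0718 for the log2 number of clusters against SCAF4, and -0.183 to 0.0631 for 5′ UTRs, -0.877 to 0.265 for the last 10% of the mRNA and -2.86 to 2.70 for 3′ splice sites against the parental line.

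The number of genes called by limma, 0 without a block, was 406 with the replicate block that pairs IP and input, 544 with 1 cluster added (24 higher and 520 lower), 2 without a filter, 490 with the scaled prior and 301 with the scaled prior and replicate block. The last 2 settings were chosen after seeing the data. The other measures cannot pass a threshold of 0.05 with 3 pairs, with or without the block. Without single lists the log2 change was -1.40 to 2.00 for DNAH17 and -0.297 to 0.0863 for PRKDC, which was 0.0565 after centring. Regions of 3 IP lists and no input numbered 231 in lists of the same length, those of 3 inputs and no IP list 688, and those of all 6 lists 253. With clusters trimmed to 30 nt the last 2 were 69 and 1096. Overlap with the own counterpart was 13.3% of IP and 36.1% of input clusters with scores at or above the median, and 27.6% of input clusters in lists of the same length. With exons only, the median log2 change relative to all genes was 0.0329 for CTD-interacting proteins and -0.0460 for RNAPII subunits. Shares of rare classes rest on the shortest list of 9008 clusters, and reads per cluster are unknown.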
